A study of Mus musculus with 8 samples.

Results

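The nuclear genes of respiratory complex I were followed in sorted mouse haematopoietic stem cells (HSCs). The genes were chosen by name, as every protein-coding gene of the count tables whose mouse symbol begins with Nduf, which gave 46 of 55487 genes. They comprised 7 core subunits, 29 accessory subunits, 8 assembly factors named Ndufaf, and Ndufa4 and Ndufa4l2, which carry the Nduf name although the Ndufa4 protein is a subunit of complex IV. The annotation lists Ndufb1-ps, the locus of the NDUFB1 subunit, as a non-coding gene, so it was not among them. Bulk RNA was profiled by Smart-seq2, which copies polyadenylated RNA of few cells into full-length cDNA, amplifies it and fragments it with a transposase. The 8 libraries came in 2 groups of 4, NTC (the non-target control) and miR652-KD (knockdown of the microRNA miR-652), both of HSCs sorted into lysis buffer. The labels give no strain, age, sort gate, knockdown agent or link between replicates and animals, so p-values reflect only how these libraries vary, and that variation may be technical. The series title concerns the pseudouridine synthase Pus10 and HSC ageing, and the design asks how transcripts differ between NTC and miR652-KD.

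Complex I, or NADH:ubiquinone oxidoreductase, is the entry point for electrons from NADH into the mitochondrial respiratory chain. Its matrix arm oxidises NADH and passes electrons along iron-sulphur clusters to ubiquinone, and its membrane arm pumps protons. The core subunits carry the catalysis, the accessory subunits surround and stabilise them, and assembly factors help to build the complex but are absent from the finished enzyme. The membrane core is encoded by the mitochondrial mt-Nd genes, so both genomes must supply parts. Quiescent HSCs are known for low mitochondrial respiration and a reliance on glycolysis.

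The microRNA of the design has 2 mature arms, shown here because direct targets often carry a match to a seed, bases 2 to 8, in the 3′ UTR. The sequences are from RefSeq (GRCm38.p6, chromosome X, plus strand), with the seed in capitals.
mmu-miR-652-3p: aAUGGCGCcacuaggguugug
mmu-miR-652-5p: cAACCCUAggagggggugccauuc
None of the 46 complex I genes held a match of at least 7 bases (8mer, 7mer-m8 or 7mer-A1) to the 3p seed in its longest annotated 3′ UTR, against 2.39% of 21037 protein-coding genes. For the 5p arm 2 of 46 (4.35%) held a match, against 12.2% of protein-coding genes. These were Ndufaf7, an assembly factor with methyltransferase activity, and Ndufb2, a distal membrane arm subunit. The sites lie at chr17:78947663-78947691 (8mer) and chr6:39600231-39600259 (7mer-m8), both on the plus strand of mm10, with the matched bases in capitals.
Ndufaf7: aaggctctctTAGGGTTAgtaaatggaag
Ndufb2: ggcagtgtccTAGGGTTtccattccgtga
The Ndufb2 site is in a 3′ UTR of 4012 bases that belongs to a long annotated transcript. A match describes the letters only. The genes were not matched for 3′ UTR length, so neither share shows that complex I genes hold fewer sites than others.

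Another feature shared by several members was found at their transcription starts. In RefSeq promoter windows (250 bases before to 50 after the start, 1 window per gene, 40 members matched), the letters AANATGGC, a form of the binding motif of the transcription factor YY1, occurred on either strand in 13 of 40 members (32.5%), against 6.23% of 27025 promoters. A match beginning after the start was found in 8 of 40 members (20%), against 2.21% of all promoters. All 8 read AAGATGGC in the direction of transcription, and in 7 of them, all but Ndufaf8, the ATG of the match is the annotated start codon. In these 7 genes the motif therefore overlaps the letters in which translation begins. How often matches in other promoters share this direction or overlap was not counted, so neither is shown to be particular to complex I genes. The windows are shown to make that overlap visible, with the match in capitals.
Ndufa3, chr7:3617385-3617412, plus strand: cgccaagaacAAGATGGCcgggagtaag
Ndufa9, chr6:126849098-126849125, minus strand: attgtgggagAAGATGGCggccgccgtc
Ndufb8, chr19:44555393-44555414, minus strand: ggagaaggtgAAGATGGCtgcc
Ndufc1, chr3:51408916-51408943, minus strand: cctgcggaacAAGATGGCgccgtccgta
Ndufs4, chr13:114388045-114388069, minus strand: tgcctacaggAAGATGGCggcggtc
Ndufs6, chr13:73328433-73328459, minus strand: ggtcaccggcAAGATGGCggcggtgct
Ndufs7, chr10:80249463-80249490, plus strand: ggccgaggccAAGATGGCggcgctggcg
Ndufaf8, chr11:120098934-120098961, plus strand: ggcagggcccAAGATGGCggcgccctcg
The letters GCATGCGC, the core of the NRF1 motif, were in 5 of 40 member windows (12.5%) and 2.8% of all, and CCGGAAG, an ETS and GABP motif, in 6 of 40 (15%) and 9.12% of all. Motif matches do not show binding. The set of all promoters was not limited to coding or expressed genes, so these shares compare unlike sets. Of the 8 genes printed above, 7 had a log2 fold change above 0 and Ndufs4 one below, which is near the share among all members tested (82.22%). The values, given below, ran from Ndufs4 at -0.05 to Ndufs6 at 0.28, and none passed the test.

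Gene counts per library ran from 14017632 to 19894821. CPM below are counts scaled to these totals, and each log2 fold change is from edgeR with TMM scaling and is positive where miR652-KD was higher. All 8 HSC markers looked at, among them Procr, Slamf1, Kit and Hlf, were detected in every library, with sums of 1944 to 2399 CPM. Single markers differed more: Kit was at 440.0 to 663.9 CPM in NTC and 380.0 to 435.4 CPM in miR652-KD, and Ly6a at 239.7 to 295.9 and 316.0 to 489.7 CPM, both without overlap and in opposite directions. Markers of other cells varied: 8 erythroid genes summed to 2292 to 5647 CPM in NTC and 19.5 to 2272 CPM in miR652-KD. The 8 neutrophil and monocyte genes summed to 11.2 to 13870 CPM in NTC, lowest in replicate 1 and highest in replicate 4. In miR652-KD they summed to 38.6 to 4528 CPM, highest in replicate 1. There Elane (1920 CPM), Mpo (1979 CPM) and Ctsg (582.6 CPM) made up nearly all of the sum. S100a8, S100a9, Ngp, Camp and Ltf were each at 454.4 CPM or more in NTC replicates 3 and 4. In every other library they were at 36.38 CPM or less. Erythroid Klf1 was at 0 in miR652-KD replicate 1, and Cd3e and Cd3g at 0 in all 8. The 7 macrophage and dendritic genes summed to 826 to 1208 CPM in NTC and 1978 to 2428 CPM in miR652-KD. Nearly all of these sums came from Cd74 and the MHC class II genes H2-Aa, H2-Ab1 and H2-Eb1. Csf1r was at 0 in all NTC libraries and at 0.352 to 8.18 CPM in miR652-KD. Itgax was at most 1.09 CPM and Adgre1 at most 3.83 CPM in any library, both highest in miR652-KD replicate 2. The 6 lymphoid genes summed to 52.5 to 145.5 CPM. The 6 cycling-cell genes summed to 378 to 513 CPM in NTC and 470 to 944 CPM in miR652-KD, highest in replicate 3. NTC replicate 1 stood apart in its reads outside genes, at 16.94% against 9.691% to 11.35% in the others. In bulk samples, fewer cells of a type and less RNA per cell cannot be told apart.

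Complex I transcripts were abundant in both groups. All members but Ndufa4l2 had at least 134 counts in every library and passed the filter on low counts, so 45 of 46 were tested. Ndufa4l2, a hypoxia-induced relative of Ndufa4, had 0 counts in all 8 libraries, and 3 counts, the limit that a count of 0 allows, correspond to 0.151 to 0.214 CPM per library, for counting error only. Levels were compared between genes per length, in CPM per kb of annotated exon over the NTC libraries (SD, n = 4). Ndufa8, an accessory subunit with the cysteine motifs of proteins imported into the intermembrane space, was highest at 291 ± 36.4, followed by Ndufa2 at 274 ± 41.8, Ndufa4 at 244 ± 19.4, Ndufs8 at 214 ± 37.0 and Ndufs7 at 186 ± 31.9. The ranges of mean ± SD of neighbours in this order overlapped. Assembly factors were mostly low, with Ndufaf2, Ndufaf4, Ndufaf5 and Ndufaf7 between 10.0 and 11.7 CPM per kb, whereas Ndufaf8 reached 95.2. Ndufb2 was lowest of the detected genes at 2.27 ± 0.733, and 72.7% of its coding bases lie in exons of other annotated genes. Reads there could be counted as ambiguous, depending on the annotation and strandedness used for counting, which are not stated. The annotated exons of Ndufb2 span 5628 bases, and those of Ndufab1 (8.26 CPM per kb) and Ndufs1 (9.41 CPM per kb) 6883 and 8086. Long annotated forms that are little used would lower such values, which was not tested. In plain CPM Ndufb2 was also the lowest detected gene, with an NTC mean of 12.78 against 20.96 for Ndufaf5, the next.

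**Figure D1:**
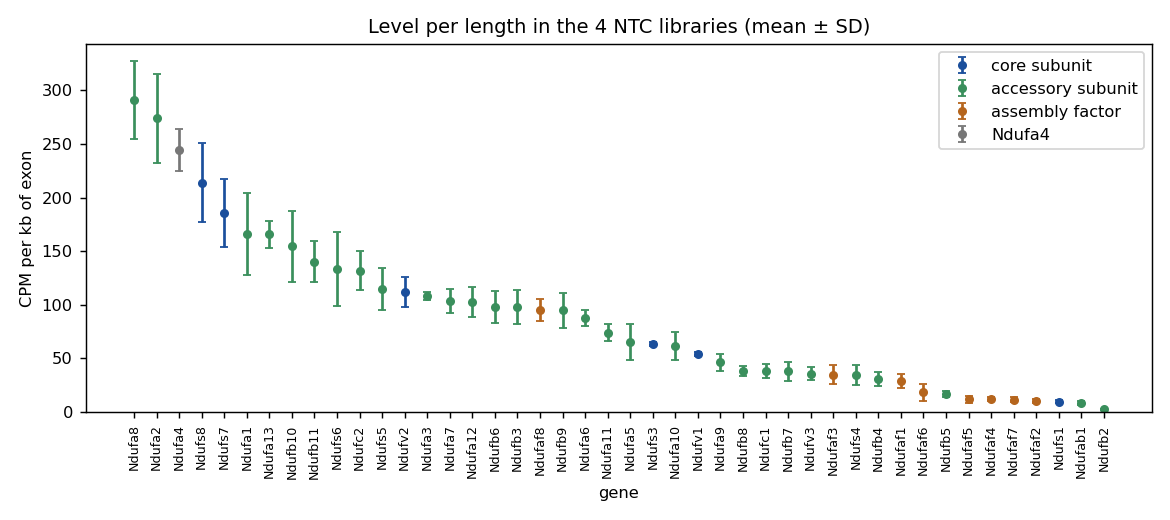
Level of the detected complex I genes but 1 in the 4 NTC libraries, in CPM per kb of annotated exon (points: mean; bars: SD). Ndufa8 is highest at 291 and Ndufb2 lowest at 2.27, and most assembly factors stand at the low end.

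Most complex I genes had slightly higher levels in miR652-KD, and none passed the test. Of the 45 tested genes, 37 had a log2 fold change above 0 and 8 had one below 0 (median 0.13). Over all 14360 tested genes 49.53% were above 0 and the median was -0.004. The 2412 protein-coding genes of similar level (67.7 to 170.1 CPM, the quartiles of the members) had 50.5% above 0 and a median of 0.004. After Benjamini-Hochberg adjustment over all genes, 0 of 45 members were called by edgeR's quasi-likelihood test (smallest adjusted p = 0.779), where 0.0418% of all genes were (0.0279% higher and 0.0139% lower in miR652-KD). At an unadjusted p below 0.05 there were 3 of 45 (6.67%), near the 5.99% of all genes, and DESeq2 also called 0. The differences were small: 36 of 45 members lay within 0.25 of 0 on the log2 scale, and the fitted ratios of miR652-KD to NTC ran from 0.838 (Ndufaf3) to 1.285 (Ndufaf2).

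The shift depended in size on one control library. NTC replicate 1 held the lowest CPM of all 8 libraries for 21 of 45 members (46.67%), and for 14.58% of all genes. Without it 31 of 45 members were above 0 and the median was 0.06. Without NTC replicates 3 and 4, which had the highest neutrophil and monocyte marker sums, 40 of 45 were above 0 and the median was 0.18. Leaving out replicate 3 of miR652-KD, which had the highest cycling-gene sum, gave 37 above 0 and a median of 0.11. The part of the reads outside genes and of the erythroid, MHC class II and cycling markers in the shift was not tested.

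**Figure D2:**
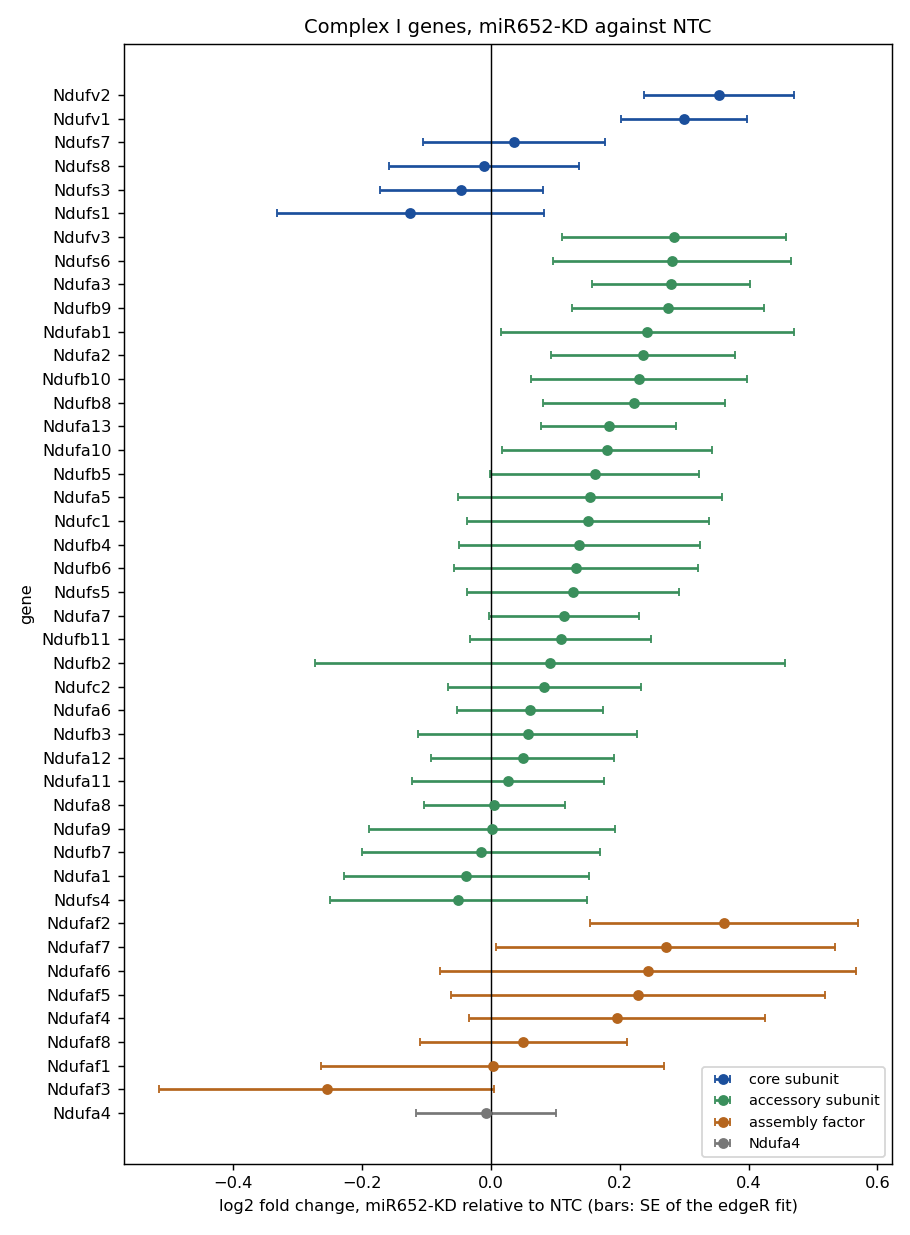
Log2 fold change of the tested complex I genes but 1, miR652-KD relative to NTC (points: edgeR estimate; bars: SE), grouped by role. Most of the genes drawn lie right of 0, and values run from Ndufaf3 at -0.26 to Ndufaf2 at 0.36.

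Summed over the 46 genes, Ndufa4 among them, the transcripts made up 4794, 5713, 5583 and 5774 CPM in NTC replicates 1 to 4. In miR652-KD the sums were 5763, 6066, 6000 and 5891 CPM. The groups overlapped, since miR652-KD replicate 1 lay below NTC replicate 4. The means were 5466 ± 455 and 5930 ± 133 CPM (SD, n = 4), and without NTC replicate 1 the NTC mean was 5690 ± 97.6 (SD, n = 3). With Ndufa4 and Ndufa4l2 left out, the sums ran from 4485 to 5440 CPM in NTC and from 5414 to 5692 CPM in miR652-KD. The groups again overlapped, and the median log2 fold change of the members was 0.13. A miR652-KD library was highest for 33 of 45 members (73.33%; 47.08% of all genes), with replicate 3 highest for 14 of them.

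Core subunits. The 7 nuclear core subunits differed among themselves: 4 lay above 0 and 3 under it (median 0.04). That median was -0.07 without NTC replicate 1, 0.07 without replicate 2, 0.14 without replicate 4 and 0.19 without replicates 3 and 4. It was 0.02, 0.10 and -0.003 without miR652-KD replicates 2, 3 and 4. The subunits Ndufv1 and Ndufv2, which together form the flavoprotein part at the tip of the matrix arm where NADH is oxidised, had the 2 largest differences.

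Ndufv1 binds NADH and the flavin FMN (ENSMUSG00000037916, mm10 chromosome 19, 4007384 to 4012806, minus strand). Its CPM were 140.3, 141.5, 147.2 and 136.2 in NTC replicates 1 to 4 and 155.6, 179.3, 180.0 and 179.5 in miR652-KD replicates 1 to 4. All 4 miR652-KD libraries lay above all 4 NTC libraries, with replicate 1 the nearest. The log2 fold change was 0.30 (SE 0.10, edgeR adjusted p = 0.779).

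Ndufv2 carries an iron-sulphur cluster beside Ndufv1 (ENSMUSG00000024099, chromosome 17, 66078638 to 66101559, minus strand). It stood at 221.1, 270.9, 206.5 and 260.4 CPM in NTC and 284.4, 293.2, 323.3 and 323.7 CPM in miR652-KD. Here too the groups did not overlap, and the log2 fold change was 0.35 (SE 0.12, edgeR adjusted p = 0.779). These were the 2 members without overlap, 4.44% of those tested, and 4.5% of all genes had none (2.35% with miR652-KD higher), so the count of members without overlap was near the background. Over all alternatives their adjusted p ran from 0.507 to 0.905 for Ndufv1 and from 0.371 to 0.905 for Ndufv2.

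The third member of the flavoprotein part, the accessory subunit Ndufv3, had 86.56, 126.4, 128.5 and 110.4 CPM in NTC and 149.5, 142.4, 153.7 and 105.0 CPM in miR652-KD. Replicates 1 to 3 of miR652-KD lay above every NTC library and replicate 4 lay among them (log2 fold change 0.28, SE 0.17, edgeR adjusted p = 0.933).

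Ndufs1, the largest iron-sulphur subunit of the same module, pointed the other way. Its CPM were 74.05, 75.33, 90.19 and 64.84 in NTC and 85.91, 60.25, 50.42 and 81.54 in miR652-KD. The groups overlapped widely, with the 2 lowest libraries in miR652-KD (log2 fold change -0.13, SE 0.21, edgeR adjusted p = 0.999).

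Other core subunits bring electrons to ubiquinone. Ndufs7, which holds the last cluster before ubiquinone, had 245.9, 328.7, 321.9 and 378.5 CPM in NTC and 330.1, 340.8, 284.5 and 350.4 CPM in miR652-KD (log2 fold change 0.04, SE 0.14). The groups overlapped, and NTC replicate 1 was the lowest library.

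Ndufs8, which carries 2 iron-sulphur clusters, had 206.4, 292.8, 289.9 and 315.3 CPM in NTC and 248.5, 314.9, 257.1 and 275.5 CPM in miR652-KD (log2 fold change -0.01, SE 0.15). Ndufs3 had 133.6, 136.9, 138.8 and 142.8 CPM in NTC and 144.2, 142.3, 107.2 and 139.5 CPM in miR652-KD (-0.05, SE 0.13). For Ndufs3 the control libraries were tightly grouped and miR652-KD replicate 3 alone was low. The genome annotation also holds a processed pseudogene of Ndufs3, Gm12251, 98.6% identical over 75.7% of the transcript, whose own counts were 6.687% of those of Ndufs3.

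**Figure D3:**
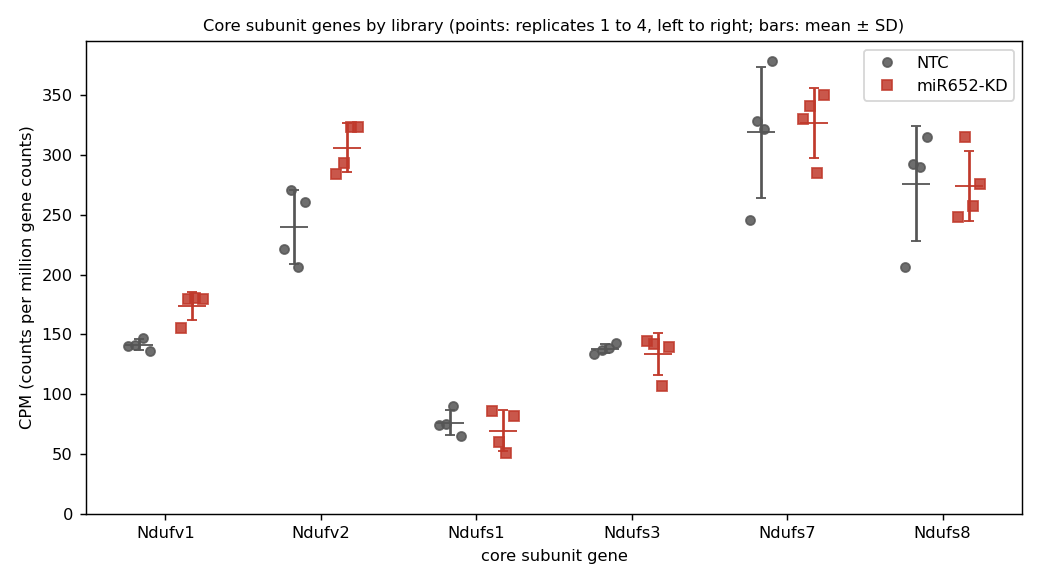
CPM of 6 core subunit genes in each library (grey circles NTC, red squares miR652-KD, replicates 1 to 4 from left to right; bars: mean ± SD, n = 4). The groups are apart for Ndufv1 and Ndufv2 and overlap for the other 4.

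Accessory subunits. Of 29 accessory subunits 26 were above 0, with a median of 0.13 (0.06 without NTC replicate 1, with 22 above 0, and 0.20 without NTC replicate 2, with 24). Split by place in the enzyme, the medians were alike: 0.11 for 9 matrix arm genes, 0.13 for 9 genes of the proximal membrane arm and 0.13 for 10 of the distal membrane arm, with 8, 8 and 9 above 0. Summed accessory CPM were 2904, 3589, 3472 and 3578 in NTC and 3544, 3767, 3929 and 3607 in miR652-KD. NTC replicate 1 was far below the other 7, which ranged from 3472 to 3929.

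Ndufa3, a small subunit of the proximal membrane arm, had the smallest p of this group. It stood at 112.0, 113.8, 109.2 and 105.2 CPM in NTC and 143.3, 148.6, 129.8 and 111.4 CPM in miR652-KD. Only miR652-KD replicate 4 reached into the NTC range (log2 fold change 0.28, SE 0.12, edgeR adjusted p = 0.833).

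Ndufb9, a LYR-motif protein of the distal membrane arm, had 84.14, 90.89, 121.8 and 93.61 CPM in NTC and 102.7, 125.2, 127.0 and 116.9 CPM in miR652-KD. NTC replicate 3 lay among the miR652-KD values (0.27, SE 0.15, edgeR adjusted p = 0.898), and 37.4% of the coding bases of Ndufb9 lie in another annotated gene.

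Ndufa13, also known as GRIM-19, had 189.4, 221.4, 219.9 and 197.5 CPM in NTC and 221.3, 238.4, 261.4 and 218.1 CPM in miR652-KD (0.18, SE 0.11, edgeR adjusted p = 0.918). Ndufa2, a small subunit of the matrix arm, had 130.9, 181.1, 172.4 and 142.3 CPM in NTC and 186.8, 188.7, 206.9 and 156.3 CPM in miR652-KD (0.24, SE 0.14, edgeR adjusted p = 0.928). In both genes miR652-KD replicate 4 lay among the NTC values, and replicate 3 was highest. For Ndufa13, miR652-KD replicate 1 also lay just below NTC replicate 2.

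Ndufab1, the mitochondrial acyl carrier protein, sits in both arms and also serves fatty acid synthesis. It had 54.41, 55.79, 41.10 and 76.12 CPM in NTC and 56.89, 81.53, 77.26 and 53.09 CPM in miR652-KD (log2 fold change 0.24, SE 0.23, edgeR adjusted p = 0.992). Its libraries spread too widely within groups for a difference of this size to be told from the spread.

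Among the other matrix arm genes, Ndufs6, a zinc-binding subunit, stood at 0.28, Ndufa5 at 0.15, Ndufa7 at 0.11, Ndufa6 at 0.06, Ndufa12 at 0.05, Ndufa9, which is needed to stabilise the junction of the arms, at 0.00 and Ndufs4 at -0.05. Ndufs4 is the subunit whose loss is used to model Leigh syndrome in mice, and its highest library was NTC replicate 4 at 129.0 CPM. In the proximal membrane arm, Ndufa10 had 0.18, Ndufc1 0.15, Ndufs5 0.13, Ndufc2 0.08, Ndufa11 0.03, Ndufa8 0.01 and the X-linked Ndufa1 -0.04. In the distal membrane arm, Ndufb10 had 0.23, Ndufb8 0.22, Ndufb5 0.16, Ndufb4 0.14, Ndufb6 0.13, the X-linked Ndufb11 0.11, Ndufb2 0.09, Ndufb3 0.06 and Ndufb7 -0.02. These are log2 fold changes, and in each of these genes the groups overlapped. Those nearest to 0 changed sign under other scalings: Ndufa8 and Ndufa9 were below 0 with RLE scaling, and Ndufb7 and Ndufs8 above 0 with upper-quartile scaling.

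Near-identical processed pseudogenes were annotated for 7 members (Ndufa12, Ndufb11, Ndufb3, Ndufb4, Ndufs3, Ndufs5 and Ndufs6). The tables count 0 reads as aligned to more than 1 place, so reads shared exactly between copies may be missing from these genes. Without these 7 the median of the members was 0.15.

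Assembly factors. The Ndufaf genes had a median of 0.21, with 7 of 8 above 0. Leaving out NTC replicate 4 gave 0.13, leaving out either replicate 1 or replicate 4 of miR652-KD gave 0.11, and leaving out NTC replicates 3 and 4 together gave 0.11. Their median coefficient of variation was 21.9% in NTC and 24.8% in miR652-KD, against 16.9% and 12.1% for accessory subunits. Ndufaf2, a paralogue of Ndufa12 that holds its place during late assembly, had the largest difference. It stood at 28.79, 35.10, 24.93 and 30.54 CPM in NTC and 38.09, 35.99, 46.29 and 32.89 CPM in miR652-KD. Only NTC replicate 2 lay above the lowest miR652-KD library (log2 fold change 0.36, SE 0.21, edgeR adjusted p = 0.918). An annotated gene on the opposite strand, B230220B15Rik, covers 65.6% of its exons. Without strand, reads there cannot be told apart and could be left out as ambiguous.

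Ndufaf7 acts early in assembly and holds the 5p seed match shown above. It had 29.80, 43.73, 48.86 and 36.90 CPM in NTC and 55.12, 32.10, 41.57 and 63.19 CPM in miR652-KD, with the 2 highest libraries in miR652-KD and the groups otherwise mixed (0.27, SE 0.26, edgeR adjusted p = 0.995). The other gene with a site, Ndufb2, had 16.08, 9.559, 8.888 and 16.60 CPM in NTC and 10.97, 11.92, 12.16 and 19.10 CPM in miR652-KD, again without a separation (0.09, SE 0.36).

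Ndufaf3, an early assembly factor, was the member furthest below 0. Its CPM were 59.39, 45.59, 85.24 and 61.09 in NTC and 61.39, 69.61, 39.31 and 39.59 in miR652-KD. Replicates 3 and 4 of miR652-KD were the lowest libraries and replicates 1 and 2 lay inside the NTC range (log2 fold change -0.26, SE 0.26, edgeR adjusted p = 0.995). Without NTC replicates 3 and 4 the value was 0.01. Ndufaf6 had 0.24, Ndufaf5, which hydroxylates an arginine of Ndufs7, 0.23, Ndufaf4 0.20, Ndufaf8 0.05 and Ndufaf1 0.00.

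Ndufa4, the complex IV subunit, had 308.9, 373.5, 333.5 and 333.6 CPM in NTC and 349.2, 376.8, 307.9 and 306.5 CPM in miR652-KD. The groups overlapped over nearly their whole range (log2 fold change -0.01, SE 0.11, edgeR adjusted p = 0.999).

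Assembly factors that lack the Nduf name were taken from a list of 14, of which 13 symbols were matched and tested. Of these 5 lay above 0 and 8 under it (median -0.09), and 0 were called. Nubpl, which delivers iron-sulphur clusters to complex I, had the largest difference of the list at 1.04 (SE 0.40, edgeR adjusted p = 0.803). It stood at 9.484, 13.98, 21.95 and 10.86 CPM in NTC and 30.25, 17.39, 21.97 and 45.99 CPM in miR652-KD. NTC replicate 3 lay above miR652-KD replicate 2, and miR652-KD replicate 4 was highest.

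Transcriptional regulators of respiratory genes gave no common direction. Of 8 (Nrf1, Gabpa, Gabpb1, Esrra, Yy1, Ppargc1a, Ppargc1b and Pprc1) 3 lay above 0 and 5 under it (median -0.06), and 0 were called. Yy1, whose motif is shown above, had 109.5, 76.40, 58.22 and 86.98 CPM in NTC and 104.4, 93.38, 126.6 and 92.04 CPM in miR652-KD. NTC replicate 1 was the second highest of all libraries and the groups overlapped (log2 fold change 0.34, SE 0.19, edgeR adjusted p = 0.918).

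The mitochondrially encoded subunits lay on the other side of 0. The 7 mt-Nd genes all had lower fitted levels in miR652-KD, with a median log2 fold change of -0.30. For mt-Nd4l, with only 8 to 16 counts per library, the value was -0.23 (SE 0.92). For mt-Nd3 it was -0.29 (SE 0.41), so the direction of these 2 genes is uncertain. Leaving out single libraries, the median ran from -0.39 (without miR652-KD replicate 3) to -0.23 (without miR652-KD replicate 2), and 1 of 7 was above 0 without NTC replicate 2. It was -0.48 without NTC replicates 3 and 4. The lowest library was miR652-KD replicate 2 for 4 of the genes and replicate 4 for 3, so they cannot be taken as independent. None was called, and 4 of 7 had an unadjusted p below 0.05, where 5.99% of all genes did. The erythroid sums were also higher in NTC, and their part in this was not tested. Of these, mt-Nd4, a proton-pumping subunit, had 1678, 1869, 1540 and 1625 CPM in NTC and 1468, 1225, 1476 and 1192 CPM in miR652-KD, without overlap, as in 4.5% of all genes (-0.32, SE 0.10, edgeR adjusted p = 0.764). The others overlapped between groups, among them mt-Nd2 at -0.51 (SE 0.17, edgeR adjusted p = 0.779) and mt-Nd1 at -0.30 (SE 0.11, edgeR adjusted p = 0.782).

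Set against each other, the summed mt-Nd CPM were 1.526, 1.314, 1.191 and 1.148 times the summed Nduf CPM in NTC replicates 1 to 4, and 1.072, 0.788, 1.048 and 0.876 times in miR652-KD replicates 1 to 4. All 4 NTC ratios lay above all 4 miR652-KD ratios, with means of 1.29 ± 0.170 and 0.946 ± 0.137 (SD, n = 4). The nearest pair were NTC replicate 4 and miR652-KD replicate 1. The summed mt-Nd CPM alone were already apart, at 6627 to 7507 in NTC and 4778 to 6289 in miR652-KD. The ratio was formed after both directions were known, and poly(A) priming captures mitochondrial transcripts in its own way, so it compares these libraries and not amounts of protein. No test was made of it.

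**Figure D4:**
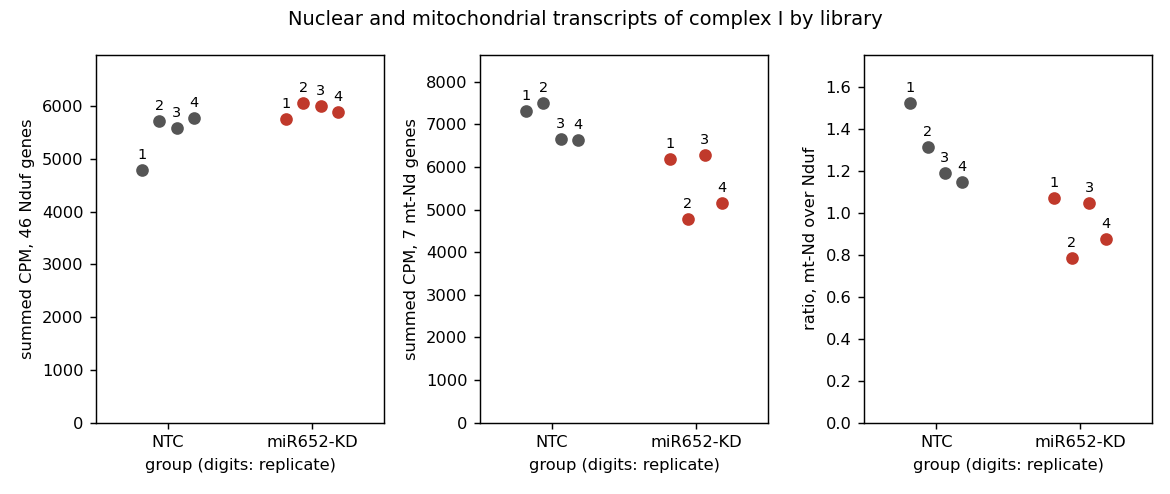
Summed CPM of the 46 Nduf genes (left), of the 7 mt-Nd genes (middle) and the ratio of the second sum to the first (right) in each library, with replicate numbers. The Nduf sums overlap between groups. The mt-Nd sums do not, at 6627 or more in NTC and 6289 or less in miR652-KD. The ratio is 1.148 or more in NTC and 1.072 or less in miR652-KD.

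Beyond complex I, other mitochondrial gene groups were looked at in the same way. Of 43 tested nuclear genes of complexes II to V 36 were above 0 (83.72%, median 0.14), and of 77 mitochondrial ribosomal protein genes 50 (64.94%, median 0.08), against 82.22% and 0.13 for complex I. None of these was called either. NTC replicate 1 was the lowest library for 58.14% of the complex II to V genes and for 37.66% of the mitochondrial ribosomal protein genes, and without it their medians were 0.09 and -0.01. Without that library 31 of 45 complex I genes and 38 of 77 mitochondrial ribosomal protein genes were above 0. Whether complex I differs from these groups was not tested.

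**Figure D5:**
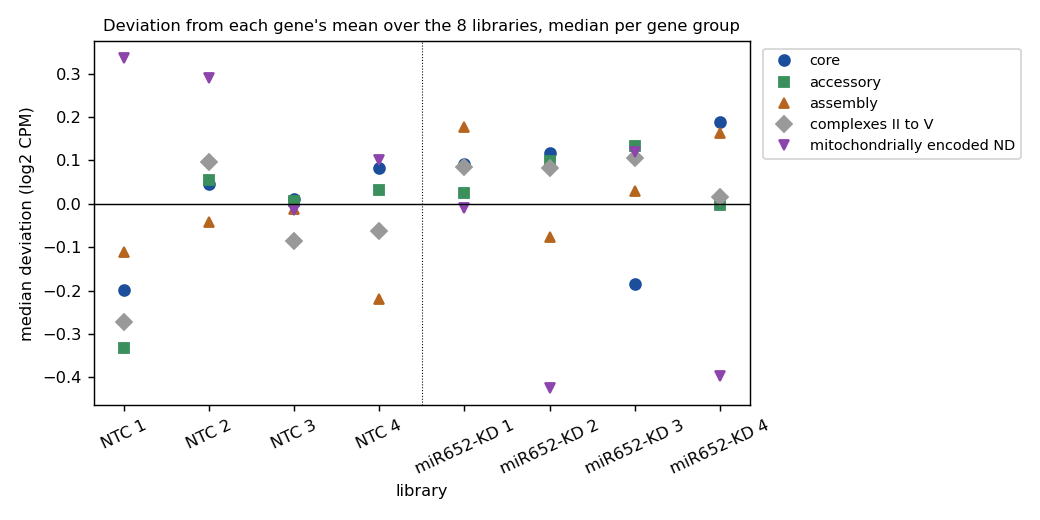
Median deviation, in log2 CPM, of each gene group from its genes' means over the 8 libraries (symbols: gene groups; dotted line: border between NTC and miR652-KD). The accessory genes lie at -0.33 in NTC replicate 1 and at 0.13 in miR652-KD replicate 3, and the mt-Nd genes run the other way in NTC replicate 1, at 0.34.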

How the data were processed

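Per the submitters' processing notes, HISAT2 2.1.0, HTSeq 0.11.2 and DESeq2 were used with mm10; neither the annotation release nor strandedness is stated there. The deposited files hold raw read counts per gene, which the authors left unnormalized. Their 5 summary lines (outside genes 9.691% to 16.94%, ambiguous 8.944% to 12.28%) were left out. Identifiers were matched without version to GENCODE M21 (55394 of 55487). CPM use library totals of 14017632 to 19894821 counts, which limit counting precision; Smart-seq2 has no molecular identifiers. The test was edgeR 4.0.16 (R 4.3.3): TMM, filterByExpr (minimum count 10, total 15), robust quasi-likelihood F test, Benjamini-Hochberg over 14360 genes, called below 0.05. SE is the log2 fold change over the square root of F. Members, lists and the rule for named genes (core subunits, of which 1 is not reported here, Ndufa4, Ndufa4l2, Ndufab1, the 4 accessory and 2 assembly genes of smallest p, members without overlap, extremes) were chosen with earlier results of these data known; Nubpl, Yy1, Ndufv3, Ndufb2 and the mt-Nd genes were singled out after their values were seen. Copies were sought with blastn 2.17.0 (at least 95% identity over 30% of the transcript). On simulated counts of 13693 genes for this comparison, 26% of 2-fold and 70% of 4-fold changes were called. Alternatives were other scalings, DESeq2 1.42.0, limma-voom (3.58.1), other filters (none; 5 CPM in 4 libraries), a non-robust fit, the replicate number as a block and leaving out libraries.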

Additional observations from a re-analysis of the deposited data

Results flagged for a closer look

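Among 98 groups of 4 values examined, 7 held a library whose gap to its nearest neighbour was above Dixon's critical value as a share of the group's range, where chance flags about 1 in 20 groups. In miR652-KD these were Ndufs3 at 107.2 CPM in replicate 3 (139.5 to 144.2 in the others), Ndufv1 at 155.6 CPM in replicate 1 (179.3 to 180.0), Ndufa6 at 144.0 CPM in replicate 4 (169.4 to 173.1), Ndufb2 at 19.1 CPM in replicate 4 (10.97 to 12.16) and Ndufaf5 at 33.04 CPM in replicate 1 (20.54 to 22.68). In NTC these were replicate 1 for Ndufb6 at 50.18 CPM (68.19 to 71.05) and for the summed accessory subunits at 2904 CPM (3472 to 3589).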

How the results depend on the processing

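No complex I gene was called under any of the alternatives run. The count of called genes over all genes was 6, and 61 with DESeq2, 0 with the replicate block (733 at unadjusted p below 0.05), 0 (at unadjusted p below 0.05, 789 to 992) when any single library was left out and 0 without NTC replicates 3 and 4 (884), an alternative chosen after seeing the data. Same-numbered replicates did not deviate together over all genes (correlations -0.033 to -0.0101). Whether the numbers link samples stays unknown, because a small shared effect could be hidden by the spread between libraries. Leaving out single libraries, 31 to 39 members were above 0, and the median was 0.06 to 0.19 for all members, -0.07 to 0.14 for core, 0.06 to 0.20 for accessory and 0.11 to 0.26 for assembly genes. The core median was 0.1882 without NTC replicates 3 and 4. Signs of small differences turned as follows, and the cause was not tested. With RLE scaling Ndufa8 was -0.0001, Ndufa9 -0.0035 and Ndufaf1 -0.0012. With DESeq2 they were -0.0001, -0.0035 and -0.0011, and with limma-voom -0.0001, -0.0402 and -0.1016. With upper-quartile scaling Ndufs8 was 0.0107, Ndufb7 0.0074 and Ndufa4 0.0131. With library totals Ndufa9 was -0.0037. Ndufa4 was 0.0006 without a filter and 0.0018 at 5 CPM in 4 libraries. With the replicate block Ndufs8 was 0.0046, Ndufa9 -0.0104, Ndufb7 0.0158 and Ndufaf1 -0.0149. Without NTC replicates 3 and 4 Ndufs8 was 0.1364, Ndufb7 0.0646, Ndufs4 0.2361, Ndufaf3 0.0125 and Ndufaf6 -0.079.
Leaving out single libraries, the ranges of those that turned were Ndufs1 -0.2428 to 0.0057, Ndufs3 -0.0852 to 0.0502, Ndufs7 -0.0794 to 0.1357, Ndufs8 -0.1363 to 0.0654, Ndufa1 -0.1143 to 0.1510, Ndufa11 -0.0364 to 0.0848, Ndufa12 -0.0448 to 0.1335, Ndufa8 -0.0581 to 0.0706, Ndufa9 -0.1507 to 0.1170, Ndufb2 -0.1258 to 0.2541, Ndufb3 -0.0454 to 0.1528, Ndufb7 -0.1635 to 0.1003, Ndufs4 -0.1661 to 0.1551, Ndufaf1 -0.1187 to 0.1602, Ndufaf8 -0.0399 to 0.1529, Ndufa4 -0.0603 to 0.0617.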
